A study of Homo sapiens with 6 samples.

Results

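Metallothioneins are small cysteine-rich proteins that hold zinc and copper in the cytoplasm, and 7 of their genes were examined with the zinc exporter SLC30A1 and the metal-sensing transcription factor MTF1. The 9 genes were chosen by name with the difference between the 2 groups already in view, from a set of 19775 measured genes. They have 17 of the 54613 probe sets that are no controls. Each of the 17 is annotated to 1 member alone, so no probe set had to be set aside as annotated to several genes, and no filter on low values was applied. Because the choice used this contrast, the members' differences are given as a description without a test.

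The samples came from SW480, a long-established cell line from a human colorectal adenocarcinoma, grown in serum-containing medium and measured on Affymetrix HG-U133 Plus 2.0 arrays from 100 ng of total RNA. 3 arrays are labelled as cells transfected for overexpression of CPEB3, a protein that binds mRNAs and controls their translation, and 3 as transfected negative control (NC). The replicates are called biological, but no culture, day or clone is given, so spreads and p-values measure the variation between these samples, and the number of arrays limits the precision. How long the cells had been transfected, and with which vector, is not given in the sources used here.

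When zinc enters a cell, MTF1 binds it, moves to the nucleus and recognises short metal response elements in the promoters of the metallothionein genes and of SLC30A1. The newly made metallothionein binds the metal, and SLC30A1 carries zinc out across the plasma membrane. In the intestinal epithelium the same genes buffer the zinc taken up from the diet. Metallothionein genes also respond to cadmium, oxidants, cytokines and glucocorticoids.

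RefSeq's table (GRCh38.p14) held the promoter window from 250 bases before to 50 bases after the start for 5 of the 9 members, and the 4 with a match to this element are printed to show where its copies lie. The core of the element was searched as TGCACNC and as TGCGCNC on both strands, and the matches, none of which overlapped another, are in capitals. A match on the other strand therefore reads in reverse complement. The windows lie at chr16:56608334-56608633 (MT2A), chr16:56669564-56669863 (MT1H) and chr16:56682220-56682519 (MT1X) on the plus strand, and at chr1:211579112-211579411 (SLC30A1) on the minus strand. All are written 5' to 3' on the strand of the gene.
MT2A: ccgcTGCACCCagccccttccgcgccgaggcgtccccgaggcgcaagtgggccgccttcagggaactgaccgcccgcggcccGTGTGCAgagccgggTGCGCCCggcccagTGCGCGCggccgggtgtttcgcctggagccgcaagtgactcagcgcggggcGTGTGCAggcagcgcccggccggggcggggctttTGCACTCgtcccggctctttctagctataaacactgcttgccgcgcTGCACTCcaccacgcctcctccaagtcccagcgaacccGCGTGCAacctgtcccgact
MT1H: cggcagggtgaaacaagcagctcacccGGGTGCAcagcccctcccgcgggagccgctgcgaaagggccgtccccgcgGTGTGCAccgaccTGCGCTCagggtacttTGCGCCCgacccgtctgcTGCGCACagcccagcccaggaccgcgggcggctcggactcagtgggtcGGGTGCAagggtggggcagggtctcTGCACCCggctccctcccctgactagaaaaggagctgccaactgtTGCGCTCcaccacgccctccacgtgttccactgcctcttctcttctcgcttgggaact
MT1X: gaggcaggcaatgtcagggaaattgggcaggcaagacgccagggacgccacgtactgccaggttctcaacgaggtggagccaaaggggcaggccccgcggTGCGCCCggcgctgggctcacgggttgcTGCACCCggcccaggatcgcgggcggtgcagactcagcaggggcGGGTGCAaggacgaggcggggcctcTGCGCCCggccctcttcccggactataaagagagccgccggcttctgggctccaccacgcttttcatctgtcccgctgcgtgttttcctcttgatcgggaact
SLC30A1: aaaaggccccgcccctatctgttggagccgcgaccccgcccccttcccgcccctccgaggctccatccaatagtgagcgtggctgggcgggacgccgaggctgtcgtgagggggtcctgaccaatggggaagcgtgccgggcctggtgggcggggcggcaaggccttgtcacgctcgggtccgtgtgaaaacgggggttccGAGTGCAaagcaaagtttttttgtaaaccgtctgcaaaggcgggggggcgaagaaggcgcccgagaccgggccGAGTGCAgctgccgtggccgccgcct

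MT2A and MT1H held 8 cores each, a number that 7 of all 35116 windows in the table reached (0.0199%). MT1X held 4, which 0.601% of all windows reached or passed. SLC30A1 held 2, against 8.60% of all windows with 2 or more. The window of MTF1 had no match, as had most windows, since 29.6% held at least 1. In MT2A, MT1H and MT1X a core on the gene's strand began at nearly the same distance from the start (at -54, -53 and -53). Cores are a description of sequence, and binding was not measured in these samples.

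**Figure D1:**
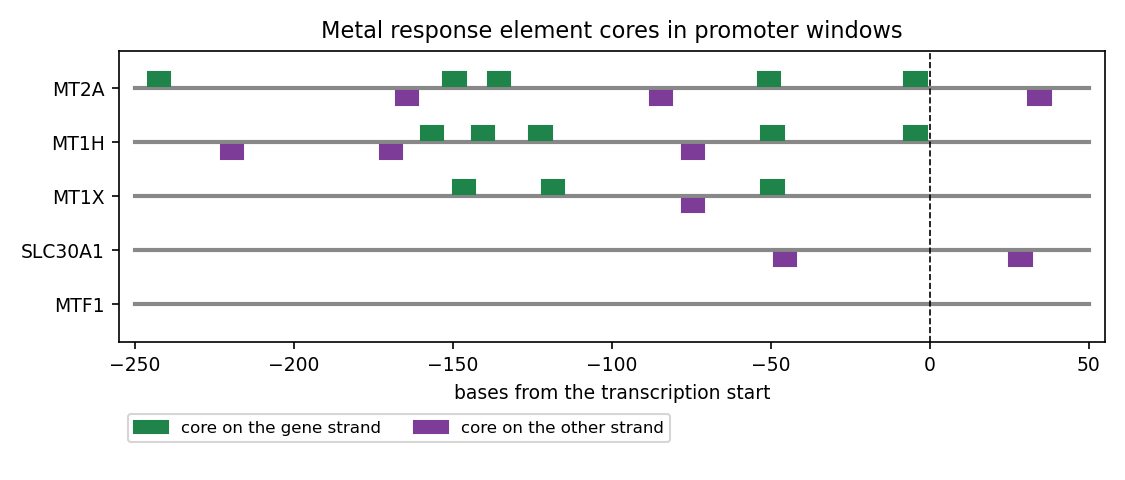
Positions of metal response element cores (boxes, 7 bases wide) from 250 bases before to 50 bases after the start of 5 members, in bases from the transcription start; boxes above a line lie on the strand of the gene and boxes below it on the other strand. MT2A and MT1H hold 8 boxes each, MT1X 4, SLC30A1 2 and MTF1 0.

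Of the whole series, 4 facts bear on these genes. CPEB3 signal was lower, not higher, in the arrays labelled CPEB3 at 3 of its 4 probe sets (by -0.25, -0.35 and -1.44 on the log2 scale). All 3 had group means below the array medians. At the brightest probe set the signal was 5.37 ± 0.03 against 5.32 ± 0.07 (SD, n = 3 each), so groups are named by their labels and every direction rests on them. The vector is not given, so whether these probe sets read the transfected CPEB3 was not tested. Array medians lay between 3.89 and 3.93 on the log2 scale, and the hybridization spike-in controls had a mean difference of -0.18 between the arrays labelled CPEB3 and NC. Over the 18 probe sets of these controls the difference ran from -0.33 to -0.04, so the size of the shift depends on the controls used. The part of these controls in the differences was not tested. Values with each array centred on the mean of those controls are given for the members and for the counts of the gene lists. Of 12 colon epithelial markers 11 lay above the median probe set. The brightest were EPCAM, KRT8, KRT18 and KRT19, whose group means ran from 9.84 to 11.62. CDH1 was at 7.71 (CPEB3) and 7.72 (NC). The group means of KRT20, CDX1, CDX2, VIL1, CEACAM5 and GPA33 ran from 4.07 to 5.14, closer to the array medians. Those of LGALS4 lay below the array medians. In limma's test over all genes 2 of the 12 rose, KRT20 by 0.87 and KRT18 by 0.26, and 0 fell, and the summed intensity of the 12 was 8614 to 8906 in the arrays labelled CPEB3 and 7817 to 7954 in those labelled NC. The part of these markers in the members' differences was not tested. The leukocyte marker PTPRC was at 1.62 and 1.48, below the array medians.

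Among the metallothioneins, the bright probe sets were all lower in the arrays labelled CPEB3, by 1.25-fold to 1.71-fold. MT2A, the most abundant isoform in many tissues, had log2 intensities of 11.78, 11.74 and 11.81 in the arrays labelled CPEB3 and 12.07, 12.11 and 12.16 in those labelled NC. The 3 values of one group lay below the 3 of the other, and the means were 11.78 ± 0.04 and 12.11 ± 0.04 (SD, n = 3 each). The difference of -0.34 is 1.26-fold, and after spike-in centring it was -0.16, still without overlap. In a culture, fewer cells that express a gene and less RNA per cell cannot be told apart.

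MT1 isoforms bind metal in the same way as MT2A and differ mainly in regulation and in the tissues that use them. MT1E was read by a pair of probe sets. At 212859_x_at its values were 11.52, 11.60 and 11.62 against 11.94, 11.99 and 12.04, a difference of -0.41. At 216336_x_at they were 10.56, 10.58 and 10.58 against 10.95, 11.01 and 11.06, a difference of -0.43. The probe sets of MT1E therefore differed by nearly the same amount, and neither had overlapping groups. After spike-in centring they were at -0.23 and -0.25, again without overlap.

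MT1F was lower at both of its probe sets. At 217165_x_at the values were 10.57, 10.50 and 10.60 against 11.07, 11.08 and 11.08 (difference -0.52, 1.43-fold). At 213629_x_at, the dimmer of the pair, they were 8.34, 8.30 and 8.43 against 8.95, 8.95 and 8.92 (difference -0.58). Here the arrays labelled NC lay within 0.03 of each other and the arrays labelled CPEB3 within 0.13. Spike-in centring gave -0.34 and -0.40, with no overlap.

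MT1X, an isoform widely expressed in epithelial cells, had values of 10.73, 10.71 and 10.74 against 11.19, 11.26 and 11.25 at 208581_x_at, a difference of -0.51 with a pooled SD of 0.03. At 204326_x_at, also annotated to MT1X, the values were 10.08, 9.98 and 9.96 against 10.89, 10.74 and 10.71, a difference of -0.77 (1.71-fold). The target accession of 204326_x_at is that of MT1L, a transcribed pseudogene next to MT2A, in the RefSeq table. Whether it reads MT1X, MT1L or both was not tested, and its value was the steepest among the 17 probe sets. Centring on the spike-in controls left -0.33 at 208581_x_at and -0.60 at 204326_x_at, both without overlap.

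MT1H had values of 10.27, 10.31 and 10.30 against 10.65, 10.73 and 10.67, a difference of -0.39 (1.31-fold), or -0.21 after spike-in centring, with no overlap in either. MT1G, the isoform known for silencing by promoter methylation in several tumours, gave different outcomes at its pair of probe sets. At 204745_x_at it had 9.85, 9.88 and 9.79 against 10.13, 10.19 and 10.17, a difference of -0.32, which became -0.14 with overlapping groups after spike-in centring. At 210472_at, which lay below the median probe set of all 6 arrays, it had 2.87, 2.77 and 2.77 against 2.66, 2.79 and 2.71. These groups overlapped, and the difference was 0.09, or 0.27 without overlap after spike-in centring.

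MT1M had 1 probe set, 217546_at, and it too lay below the median of every array. Its values were 2.31, 2.35 and 2.25 against 2.56, 2.48 and 2.57, a difference of -0.23, which became -0.06 with overlapping groups after spike-in centring. No detection calls were used, so whether the dim probe sets of MT1M and MT1G lie above background was not tested.

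All 9 bright metallothionein probe sets carry the suffix _x_at, which marks probes that can also match related transcripts, and the coding sequences of these isoforms are nearly alike. Their values are therefore not independent measurements of 6 genes. With these probe sets, a lower level of 1 abundant isoform and lower levels of all of them cannot be told apart. The 2 metallothionein probe sets without the suffix are the dim ones of MT1G and MT1M, and their median difference was -0.07. Over the 7 genes, each at its brightest probe set, the median difference was -0.39, beside 0.02 over all genes.

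**Figure D2:**
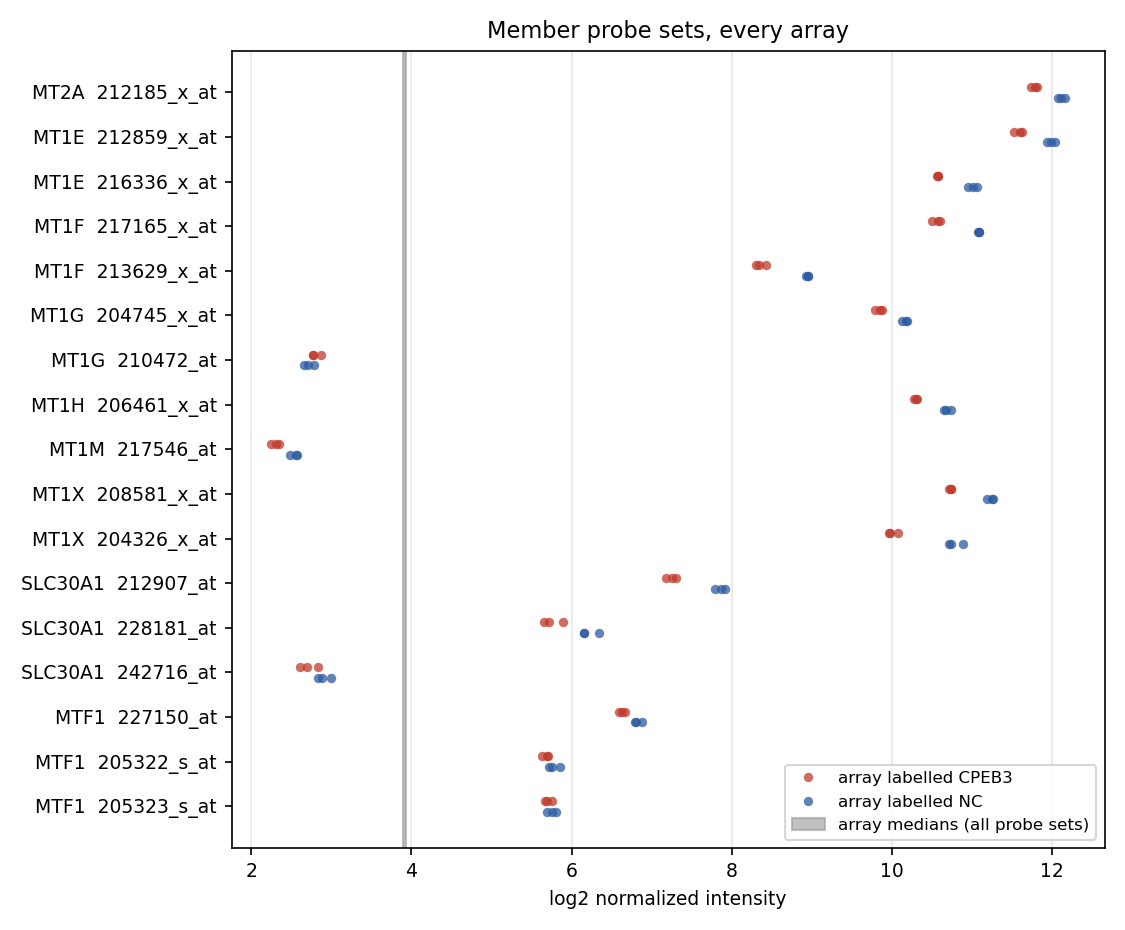
The log2 normalized intensity of each of the 17 member probe sets (rows) in the 6 arrays, with arrays labelled CPEB3 in red, those labelled NC in blue, and the range of the array medians as a grey band. Red lies below blue without overlap in 14 rows, and 3 rows (MT1G 210472_at, MT1M, SLC30A1 242716_at) lie left of the band.

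The probe sets were also set against that of MT2A within each array, a difference that no scaling constant of an array can change. Since the _x_at probe sets can match several isoforms, these values compare probe sets and not isoforms. The value of MT1X (208581_x_at) minus that of MT2A was -1.07 to -1.03 in the arrays labelled CPEB3 and -0.90 to -0.85 in those labelled NC, a further change of -0.17 with a pooled SD of 0.02. MT1F changed by -0.18 relative to MT2A (pooled SD 0.03), also without overlap. MT1E changed by -0.07 (pooled SD 0.04), its groups lying just apart. MT1H (-0.06, pooled SD 0.05), MT1G (0.01, pooled SD 0.06) and MT1M (0.10, pooled SD 0.08) had overlapping values.

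SLC30A1, the exporter that lowers cytoplasmic zinc, was lower at all 3 of its probe sets, none of which carries the _x_at suffix. At the brightest, 212907_at, the values were 7.18, 7.30 and 7.25 against 7.79, 7.92 and 7.87, with means of 7.25 ± 0.06 and 7.86 ± 0.07 (SD, n = 3 each). The difference of -0.61 is 1.53-fold, or -0.44 on the log2 scale after spike-in centring, and the groups did not overlap in either. At 228181_at they were 5.65, 5.72 and 5.89 against 6.16, 6.16 and 6.34, a difference of -0.46, or -0.28 without overlap after centring. At 242716_at, below the median of every array, the difference was -0.19 with overlap, or -0.01 after spike-in centring. Relative to MT2A within each array, SLC30A1 changed by -0.28 (pooled SD 0.07) without overlap.

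MTF1, the regulator of both, had differences of -0.20 to -0.04 at its 3 probe sets. Its brightest probe set, 227150_at, had 6.59, 6.67 and 6.63 against 6.80, 6.79 and 6.88, a difference of -0.20 (1.15-fold) without overlap. At 205322_s_at the values were 5.71, 5.69 and 5.63 against 5.72, 5.85 and 5.76, a difference of -0.10 with groups that came within 0.01 of each other. At 205323_s_at they were 5.76, 5.69 and 5.67 against 5.75, 5.69 and 5.80, a difference of -0.04 with overlap. After spike-in centring these became -0.02, 0.08 and 0.14, so the direction of MTF1 depended on the scaling. Relative to MT2A within each array, MTF1 was higher by 0.14 (pooled SD 0.05) without overlap in the arrays labelled CPEB3. Arrays measure its mRNA and not the binding of zinc or the nuclear amount of the protein.

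Counted over all members, 14 of the 17 probe sets were lower without overlap, 0 were higher and 3 overlapped. Over all probe sets 14.9% were lower without overlap and 17.1% higher, and nothing is read from this comparison because the members were chosen on this contrast. After spike-in centring 10 were lower, 2 higher and 5 overlapped, where 5.05% of all probe sets were lower and 47.1% higher. The 9 bright metallothionein probe sets then stayed below 0, at -0.14 (MT1G) to -0.60 (MT1X), with overlap in MT1G alone. Centring also moved the median of all genes from 0.02 to 0.20.

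**Figure D3:**
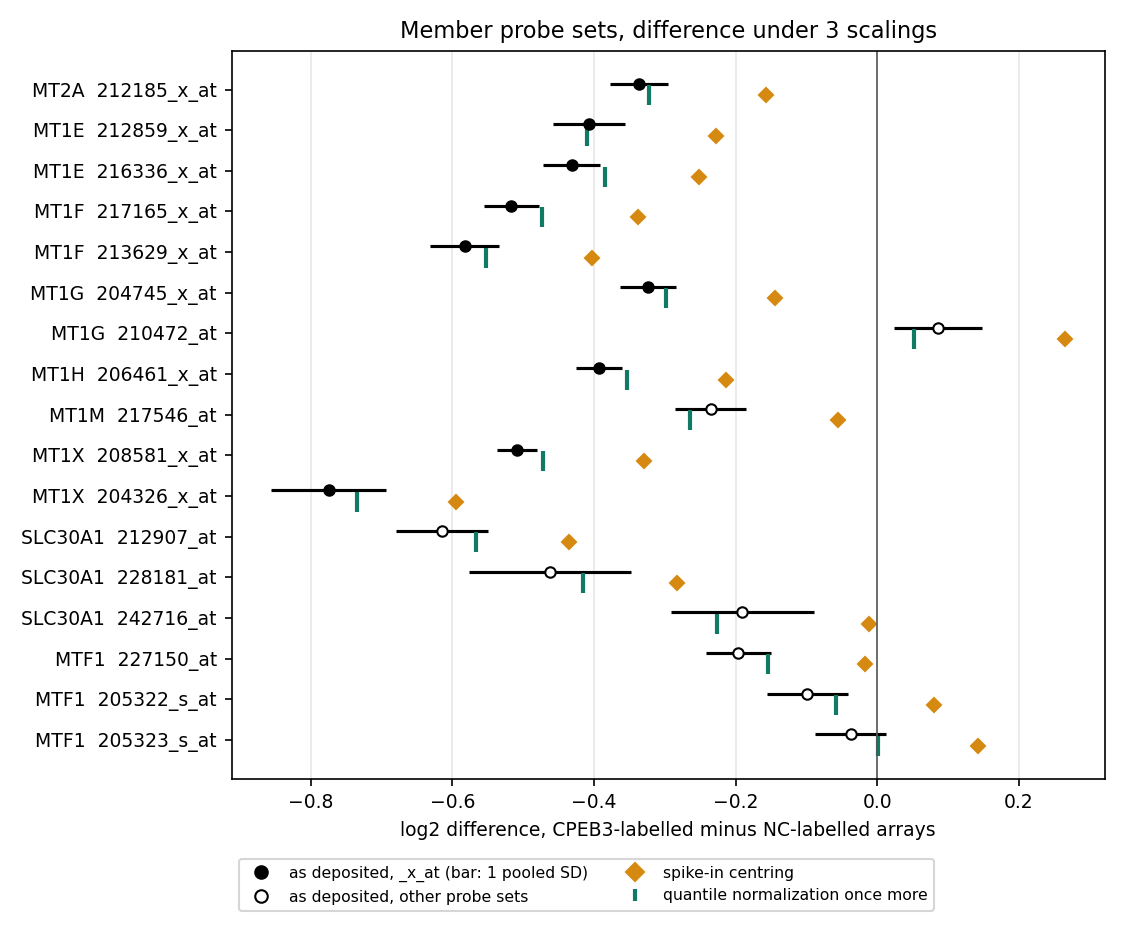
The log2 difference of each member probe set (arrays labelled CPEB3 minus NC) as deposited (circles, filled for _x_at, bars 1 pooled SD), with spike-in centring (diamonds) and with quantile normalization once more (ticks). The diamonds lie to the right of the circles by the same 0.18 in every row, and cross 0 at 2 of the 3 MTF1 probe sets.

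Of the members, 7 are neighbours, in a run of 16 metallothionein genes and pseudogenes on chromosome 16. In the RefSeq table the order is MT4, MT3, MT2A, MT1L, MT1E, MT1M, MT1JP, MT1A, MT1DP, MT1CP, MT1B, MT1F, MT1G, MT1H, MT1IP and MT1X. Of these, 9 had a probe set annotated to them alone. Beyond the run, the 5 nearest measured protein-coding genes on each side were examined, a set chosen after the members' values were seen. NUP93, a nuclear pore component beside MT1X, fell by 0.28 and BBS2, a component of the cilium trafficking complex, fell by 0.26. NUDT21, a cleavage and polyadenylation factor, fell by 0.26, while HERPUD1, which serves degradation at the endoplasmic reticulum, rose by 0.28. NLRC5, the interferon-inducible activator of HLA class I genes, fell by 1.87. Thus 4 of the 10 fell and 1 rose in limma's whole-table test (largest Benjamini-Hochberg adjusted p among these = 0.0366), where 12.5% of all genes fell (2470) and 10.9% rose (2146). OGFOD1 (0.13) and the other four did not pass. After spike-in centring, where 5.25% of all genes fell (1038) and 39.3% rose (7766), 1 of the 10 fell and 5 rose: NLRC5 was at -1.69, while NUDT21 (-0.08), BBS2 (-0.08) and NUP93 (-0.10) did not pass. NUP93, HERPUD1 and NUDT21 also did not pass with the mean of their probe sets (-0.06, 0.09 and -0.17), NUDT21 did not without CPEB3 replicate 2 or 3 or NC replicate 1 or 2 (-0.29 to -0.20), and NUP93 did not without NC replicate 2 (-0.25).

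**Figure D4:**
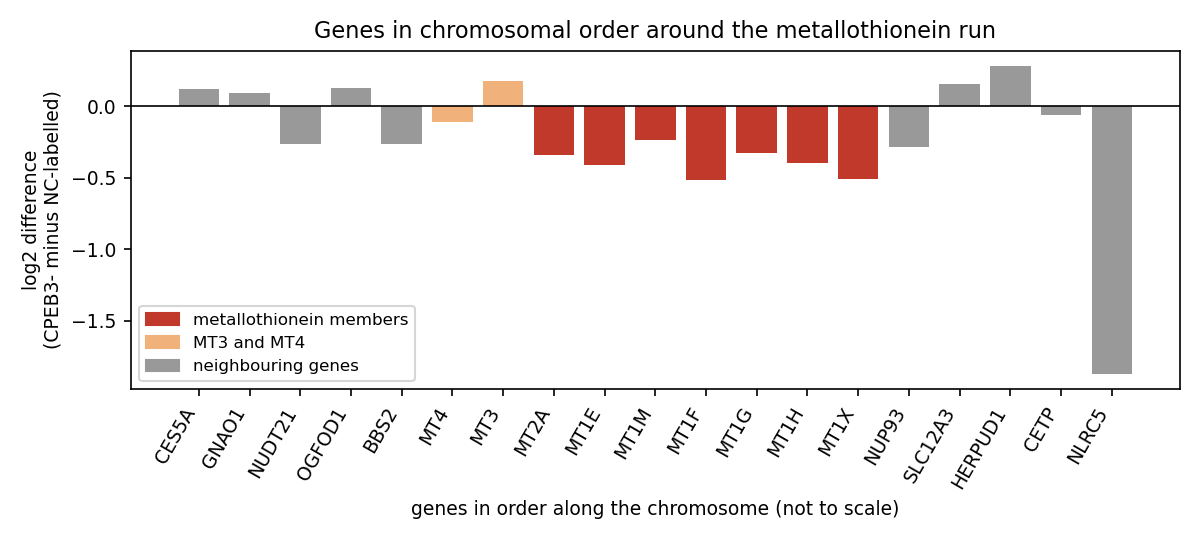
Log2 difference (arrays labelled CPEB3 minus NC) at the brightest probe set of each measured gene, in chromosomal order and not to scale, for the metallothionein members (red), MT3 and MT4 (orange) and 5 neighbours on each side (grey). The red bars run from -0.23 (MT1M) to -0.52 (MT1F), and the grey bars from -1.87 (NLRC5) to 0.28 (HERPUD1).

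The other metallothionein genes had 3 measured members of 11. MT1HL1, a relative outside the run, fell by 0.33 with an SE of 0.05 (limma, Benjamini-Hochberg adjusted p = 0.00255), from 10.88, 10.93 and 10.92 to 10.58, 10.56 and 10.61. Its single probe set also carries _x_at, and whether it reads MT1HL1, the transcripts of the members or both was not tested. After spike-in centring MT1HL1 was at -0.15 and no longer passed (limma, Benjamini-Hochberg adjusted p = 0.154). MT3, the isoform of the nervous system, had 4.86 ± 0.08 against 4.68 ± 0.14 (SD, n = 3 each), a difference of 0.18 that did not pass (limma, Benjamini-Hochberg adjusted p = 0.149), although it passed after spike-in centring (0.36; limma, Benjamini-Hochberg adjusted p = 0.0117) and without NC replicate 1 (0.25; limma, Benjamini-Hochberg adjusted p = 0.0421). MT4, the isoform of squamous epithelia, differed by -0.11. MT1A had no probe set of its own here.

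Zinc transporters outside the members gave 6 rises and 0 falls among 23, where 10.9% of all genes rose and 12.5% fell. After spike-in centring 39.3% of all genes rose, and the counts after centring below stand beside that share. Of the 9 other genes of the SLC30 exporter family, 2 rose and 0 fell, with a median difference of 0.17, or 5 and 0 after spike-in centring. SLC30A9, which serves zinc transport out of mitochondria, had 8.19, 8.21 and 8.22 against 7.68, 7.75 and 7.71, a rise of 0.50 (SE 0.06; limma, Benjamini-Hochberg adjusted p = 2.70e-04). Its other probe set was higher by 0.42 (0.415), also without overlap. SLC30A10, better known as a manganese exporter, rose by 0.28, but at values of 1.09 to 1.57. It did not pass when 8 was added to the intensities before log2 (0.07; limma, Benjamini-Hochberg adjusted p = 0.247), where 2 exporters were higher. Nor did it pass without CPEB3 replicate 1 or 2 or NC replicate 1 or 3 (0.22 to 0.30), and leaving out any of these arrays left 1 exporter higher. SLC30A5, SLC30A6 and SLC30A7, which load zinc into the secretory pathway, differed by 0.20, 0.17 and -0.04 and did not pass.

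Of the 14 SLC39 importers, which bring zinc into the cytoplasm, 4 rose and 0 fell, with a median difference of 0.13, or 9 and 0 after spike-in centring. SLC39A10, a plasma membrane importer, rose by 0.47 (SE 0.06; limma, Benjamini-Hochberg adjusted p = 5.51e-04), with 7.96, 7.89 and 8.02 against 7.48, 7.45 and 7.52. SLC39A4, the importer needed for intestinal zinc absorption, rose by 0.36, with 8.42, 8.39 and 8.38 against 7.97, 8.09 and 8.06. In both the groups lay clearly apart. SLC39A8 rose by 0.25 at the brightest of its 6 probe sets, of which 2 were higher without overlap and 4 overlapped, and with their mean it did not pass (0.13; limma, Benjamini-Hochberg adjusted p = 0.0952), nor without CPEB3 replicate 1 or 3 (0.23 and 0.22). SLC39A13, linked to connective tissue development, rose by 0.23 and was higher at both its probe sets, and did not pass without CPEB3 replicate 2, NC replicate 2 or NC replicate 3 (0.19 to 0.23). SLC39A14, an importer of zinc, iron and manganese, differed by -0.17 and did not pass (limma, Benjamini-Hochberg adjusted p = 0.0595). Without NC replicate 1, and under 5 other settings, 1 or 2 importers fell.

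Of 13 copper handling genes 2 rose and 0 fell, with a median of 0.14, beside 10.9% of all genes that rose. After spike-in centring 9 rose and 0 fell, beside 39.3%. SOD1, the copper and zinc superoxide dismutase, rose by 0.23, and SCO1, a copper chaperone of cytochrome oxidase, by 0.20. SOD1 did not pass without CPEB3 replicate 1 or 2 or NC replicate 1 or 3 (0.19 to 0.25), nor SCO1 without any array other than NC replicate 2 (0.18 to 0.22). Thus 0 copper genes rose without 1 of those 4 arrays, and 1 fell without CPEB3 replicate 3 or NC replicate 1. SCO1 did not pass with median centring either (0.19; limma, Benjamini-Hochberg adjusted p = 0.0548). ATP7A differed by -0.32, the largest difference of the list in size. Its groups overlapped and it did not pass (limma, Benjamini-Hochberg adjusted p = 0.0596). The plasma membrane importer SLC31A1 differed by 0.01 with a 95% interval of -0.13 to 0.14.

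Among 13 measured genes of 16 in the list of other heavy metal and oxidant responses, 5 fell and 2 rose, with a median of -0.10. Over all genes 12.5% fell and 10.9% rose. SLC7A11, which imports cystine for glutathione, fell by 1.13 with an SE of 0.06 (limma, Benjamini-Hochberg adjusted p = 4.93e-06), from 8.17, 8.19 and 8.20 to 6.95, 7.13 and 7.08. HMOX1, the heme-degrading oxygenase induced by cadmium and heme, fell by 1.06, from 6.97 ± 0.08 to 5.91 ± 0.11 (SD, n = 3 each). GCLC and GCLM, the subunits of the enzyme that starts glutathione synthesis, were lower as well: GCLC fell by 0.84, although 1 of its 3 probe sets overlapped, and GCLM fell by 0.78. The 2 that rose were the selenoprotein genes SELENOH (0.24) and SELENOW (0.26), named after their values were seen, and SELENOH did not pass without CPEB3 replicate 2 or 3 or NC replicate 3. After spike-in centring 4 of the list fell and 4 rose, where 5.25% of all genes fell and 39.3% rose. NQO1, TXNRD1 and the ferritin light chain FTL differed by -0.05, -0.09 and -0.10 and did not pass.

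Of 11 measured glucocorticoid-responsive genes, a list included because glucocorticoids induce MT2A, 5 fell and 0 rose, with a median of -0.18. Of all genes 12.5% fell and 10.9% rose. DUSP1, a phosphatase of MAP kinases, fell by 0.81 at 1 of its 3 probe sets, and the other two overlapped. TSC22D3, the glucocorticoid-induced leucine zipper gene, fell by 0.73 at its brightest probe set. Without probe sets of the _x_at and _s_at kinds it was 0.08 and did not pass. The probe set then left was at 2.52 (CPEB3) and 2.43 (NC), below the array medians. ERRFI1, an inhibitor of the EGF receptor, fell by 0.64. NR3C1, the glucocorticoid receptor itself, fell by 0.44 at its brightest probe set and was lower without overlap at 3 of 5. It was at -0.23 when its probe sets were averaged and at -0.26 after spike-in centring. Without _x_at and _s_at probe sets it was at -0.0027 (limma, Benjamini-Hochberg adjusted p = 0.989). That value comes from a probe set at 1.932 (CPEB3) and 1.935 (NC), below the array medians. FKBP5 (0.02), KLF9 (-0.01) and SGK1 (-0.07), which glucocorticoids induce in many cells, did not pass. Without the _x_at and _s_at probe sets 1 of this list fell. After spike-in centring 4 fell and 0 rose, beside 5.25% of all genes that fell and 39.3% that rose.

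**Figure D5:**
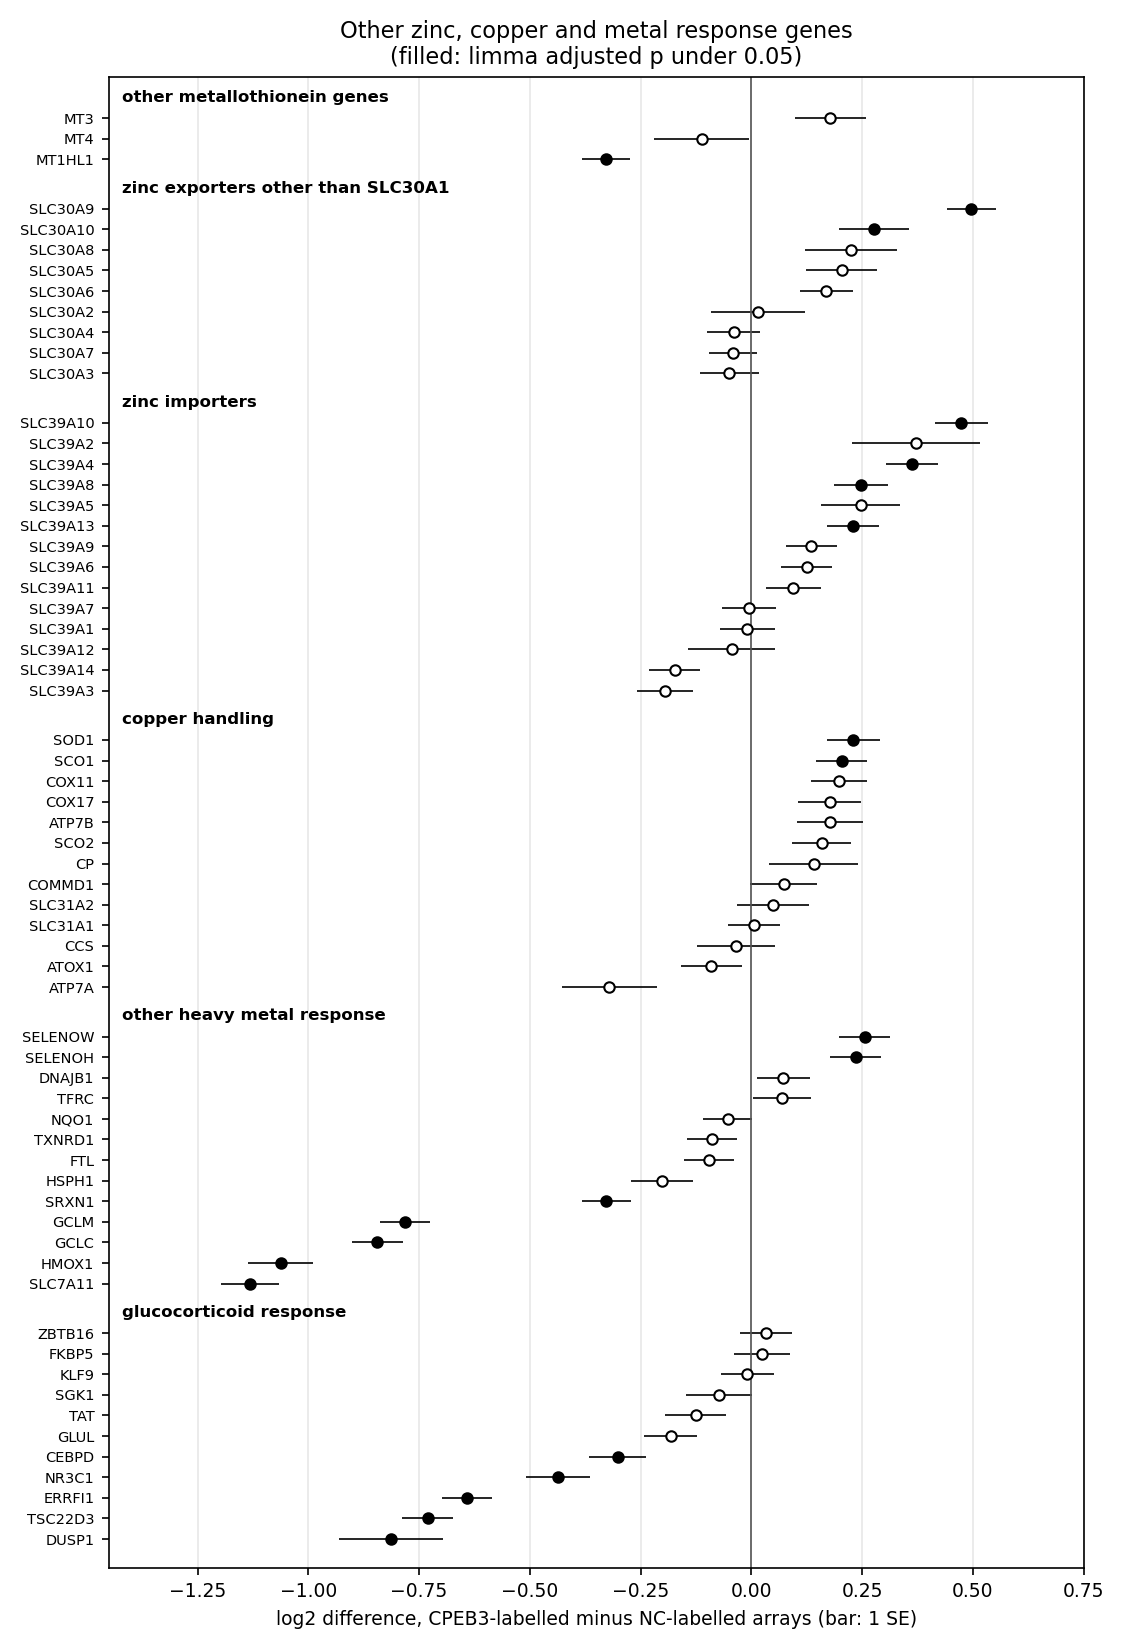
Log2 difference (arrays labelled CPEB3 minus NC, bars 1 SE) of each measured gene in the 6 lists of related genes, filled where limma's Benjamini-Hochberg adjusted p was under 0.05. The filled circles of the transporter and copper lists lie to the right of 0, at 0.20 to 0.50, and the lowest lie in the heavy metal list, SLC7A11 at -1.13 and HMOX1 at -1.06.

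The profile of the metallothioneins over the 6 arrays was close to a step between the groups. The mean of the 7 genes was 9.58, 9.59 and 9.59 in the arrays labelled CPEB3 and 9.95, 9.98 and 9.99 in those labelled NC. After each gene was centred on its own mean, the 5 closest of 19766 other genes by root mean square distance were MED20, a Mediator subunit (0.0094 on the log2 scale), the splicing factor SFPQ (0.0141), BLTP3A (0.0172), the phosphatase regulator PPP6R3 (0.0190) and the small MAF transcription factor MAFG (0.0220). They differed between the groups by -0.39, -0.40, -0.39, -0.41 and -0.36. With a profile that is mostly 1 step, likeness here means a difference of similar size and little spread.

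Markers of other cell types were examined beside these results. Among 7 measured leukocyte markers 1 (ITGAM) rose at its brightest probe set and 0 fell, 2 lay above the array medians, and their summed intensity was 91.4 to 102 in the arrays labelled CPEB3 and 80.1 to 87.2 in those labelled NC. No detection calls were used, so whether this sum lies above background was not tested. Among 9 fibroblast and endothelial markers 1 (DCN) rose and 0 fell, 4 lay above the array medians, with sums of 182 to 193 against 171 to 177. ITGAM was lower with its most variable probe set, and DCN was at -0.099 without _x_at and _s_at probe sets. Their part in the result was not tested.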

How the data were processed

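RNA of 6 SW480 samples was measured on Affymetrix HG-U133 Plus 2.0 arrays, 1 array each, 3 per group by the titles. Each deposited value is 1 probe set's normalized intensity on a linear scale, made by the authors with RMA per the submitters' processing notes; its version, and how the log2 output became linear, is not stated in these sources. RMA makes the distributions of arrays alike, so changes in total RNA are not seen, and it compresses dim differences. Arrays have no depth.

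Log2 was taken of the intensity. Of 54675 probe sets, 62 were controls, 41091 had 1 gene symbol, 1801 several and 11721 are unnamed here. For each gene, the brightest of its own probe sets (mean of 6 arrays) was used. Differences are arrays labelled CPEB3 minus NC. The tests on genes outside the members used limma 3.58.1 under R 4.3.3 (group as the only term, two-sided, Benjamini-Hochberg over 19775 genes, threshold 0.05), with 4 residual and 5.06 prior degrees of freedom. "Rose" and "fell" refer to that test, and SE and intervals come from it.

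The members and gene lists were chosen with earlier results of these data known. By rule, all members, CPEB3, up to 4 called genes per list with the largest change, the 5 genes nearest in profile, MT1A, MT3, HMOX1 and SLC39A10 were named; other named genes were chosen after their values were seen. Promoters came from RefSeq (GRCh38.p14). Steps were tested on simulated data. Alternatives were other ways to represent a gene, no _x_at or _s_at probe sets, no dim genes, 3 other scalings, 8 added before log2, an intensity trend, array weights, a replicate block and leaving out each array. Figures were drawn with matplotlib 3.10.9.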

Additional observations from a re-analysis of the deposited data

How the results depend on the processing

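The 9 bright metallothionein probe sets kept their sign under every scaling and with any 1 array left out. Their median over 7 genes (-0.39) was -0.35 with quantile normalization once more, -0.21 with spike-in centring, -0.41 to -0.37 with 1 array left out, and -0.074 without _x_at and _s_at probe sets, which leaves MT1G and MT1M. Without those probe sets TSC22D3 turned to 0.083 (at a probe set below the array medians), HERPUD1 to -0.104 and DCN to -0.099. Counts became 0 other metallothioneins lower, 2 importers higher, 1 heavy metal gene higher and 1 glucocorticoid gene lower. With spike-in centring MTF1 (205322_s_at) turned to 0.081, all genes gave 7766 higher and 1038 lower, other metallothioneins 1 higher and 0 lower, exporters 5, importers 9, copper genes 9 and heavy metal genes 4 higher. Quantile normalization gave 4 exporters and 4 copper genes higher, and an intensity trend 4 exporters, 7 importers and 4 copper genes higher with 2 importers and 1 copper gene lower. With the most variable probe set NUP93 turned to 0.154 and ITGAM to -0.513, and with the mean of probe sets ITGAM to -0.095. Without dim genes 5 copper genes were higher and 2 importers lower. Importers lower were 1 with median centring, 2 with 8 added before log2 and 2 with array weights. Copper genes were 1 higher and 1 lower with median centring and with a replicate block, and 1 lower with array weights. With 1 array left out, counts ran from 0 to 2 (copper higher), 0 to 1 (copper lower, importers lower, other metallothioneins higher), 1 to 3 (exporters higher), 3 to 6 (importers higher) and 1 to 2 (heavy metal higher).

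The replicate number as a block gave 1946 genes higher and 2316 lower. Deviations of same-numbered arrays correlated at 0.0065, 0.0012 and 0.093, and CPEB3 replicate 2 correlated best with NC replicate 1 (0.091), so the numbers were not taken to pair the arrays. Precision is limited by 3 arrays a group, and the dim probe sets of MT1G, MT1M and SLC30A1 by signal near or below the array medians.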
